A study of Mus musculus with 14 samples.

Results

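Heat shock proteins and their co-chaperones were examined in mouse kidney after renal ischemia/reperfusion injury (IRI), in which the blood supply of the kidney is stopped and then restored. The 10 genes were taken by symbol (Hspa1a, Hspa1b, Hspa8, Hsp90aa1, Hsph1, Dnajb1, Hspb1, Hspb8, Bag3 and Cryab), out of 24411 genes with counts, and all 10 were expressed highly enough to be tested. Bulk RNA sequencing had been performed on kidneys of male C57/B6 mice of 8 weeks of age, with 4 libraries at day 0, 5 at day 1 and 5 at day 3 after IRI. Day 0 is marked as control in the names of its libraries, and whether those mice had a sham operation is not given in the sources used here. Each name also carries a number, written with 3 digits for day 1 replicates 1 and 2 and day 3 replicates 1, 2 and 3 (called 3-digit libraries here) and with 1 digit for the other 9 libraries, among them all 4 of day 0. The labels do not explain this number format, so values are given within each format as well as for the whole day, and since day 0 has no 3-digit library, the format and the day cannot be told apart where 3-digit libraries are compared with day 0.

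Heat shock proteins are molecular chaperones, which bind unfolded or damaged proteins and help them to refold or to be degraded. In the cytosol, J-domain proteins such as Dnajb1 deliver substrates to Hsp70, exchange factors such as Hsph1 and Bag3 let Hsp70 release them, and Hsp90 completes the folding of many signaling proteins, while small heat shock proteins (Hspb1, Hspb8 and Cryab) hold unfolded proteins without using ATP. Under heat, low oxygen or loss of ATP the transcription factor Hsf1 binds inverted repeats of GAA in the promoters of many of these genes, and in the kidney their induction by ischemia is best known in the tubules.

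The 250 bases before the transcription start are shown for 4 of the genes, because they include the pair of near-identical inducible Hsp70 genes and the small heat shock proteins whose levels are described together. RefSeq (GRCm38.p6) gave a promoter for 7 of the 10 genes, and those of Hspa8, Hsp90aa1 and Cryab were not in the table used. The capitals mark each match to GAANNTTC or TTCNNGAA, the minimal inverted repeats of the Hsf1 binding unit, which read the same on both strands.
Hspa1a, chr17:34972157-34972406, minus strand: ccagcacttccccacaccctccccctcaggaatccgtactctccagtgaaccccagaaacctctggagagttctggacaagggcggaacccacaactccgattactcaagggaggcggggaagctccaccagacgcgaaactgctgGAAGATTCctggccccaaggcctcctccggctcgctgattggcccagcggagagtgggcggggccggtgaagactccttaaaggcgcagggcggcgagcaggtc
Hspa1b, chr17:34959239-34959488, minus strand: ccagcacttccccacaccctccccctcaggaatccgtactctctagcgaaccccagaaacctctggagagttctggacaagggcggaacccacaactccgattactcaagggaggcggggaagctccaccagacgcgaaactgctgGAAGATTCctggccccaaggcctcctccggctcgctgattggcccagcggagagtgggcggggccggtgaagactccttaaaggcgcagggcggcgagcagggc
Hspb1, chr5:135887669-135887918, plus strand: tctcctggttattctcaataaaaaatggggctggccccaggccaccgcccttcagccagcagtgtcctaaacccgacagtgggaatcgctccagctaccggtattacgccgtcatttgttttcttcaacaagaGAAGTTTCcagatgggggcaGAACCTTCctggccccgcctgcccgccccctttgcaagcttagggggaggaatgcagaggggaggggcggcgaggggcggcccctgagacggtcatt
Hspb8, chr5:116422865-116423114, minus strand: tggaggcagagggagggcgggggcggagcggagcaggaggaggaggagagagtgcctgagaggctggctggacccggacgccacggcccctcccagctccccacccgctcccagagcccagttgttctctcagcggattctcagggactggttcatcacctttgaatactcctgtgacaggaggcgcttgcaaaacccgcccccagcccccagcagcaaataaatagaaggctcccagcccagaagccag

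Hspa1a and Hspa1b were identical at 247 of these 250 bases (98.8%), and each held 1 match to GAANNTTC, from 104 to 97 bases before the start. Hspb1 had 2 matches to the same letters, from 117 to 110 and from 97 to 90 bases before the start. Hsph1 held 1 match to TTCNNGAA, from 33 to 26 or from 54 to 47 bases before the start, depending on which of its starts in the table is taken. No match lay in the windows of Hspb8, Bag3 and Dnajb1, which says only that these letters are not in those windows. Among 32851 promoter windows of the same length in the same table, 6.69% held GAANNTTC, 7.17% held TTCNNGAA and 12.8% held either.

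The authors deposited raw read counts per gene, and between 12485579 and 20476979 reads per library lay on genes. A level is given in CPM, the reads of a gene relative to all reads on genes after TMM scaling, and the 10 genes together took 0.341% to 0.442% of the reads at day 0. Their share was 0.807% to 1.67% in 1-digit libraries of day 1, and 0.210% to 0.428% in the other libraries of days 1 and 3. Differences are log2 fold changes with their standard error (SE) from edgeR's quasi-likelihood test, and a gene is called changed when its adjusted p, over the 14300 genes tested, is under 0.05. Kidney markers were present in every library (Lrp2, the endocytic receptor megalin of the proximal tubule, at 205 to 3434 CPM), and the defining skeletal muscle genes Acta1, Ckm and Myh4 were at most 0.454 CPM. The labels do not say that each library is a separate animal, so the p-values measure the spread between these libraries. In bulk tissue, fewer cells of a type and less RNA per cell cannot be told apart.

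**Figure D1:**
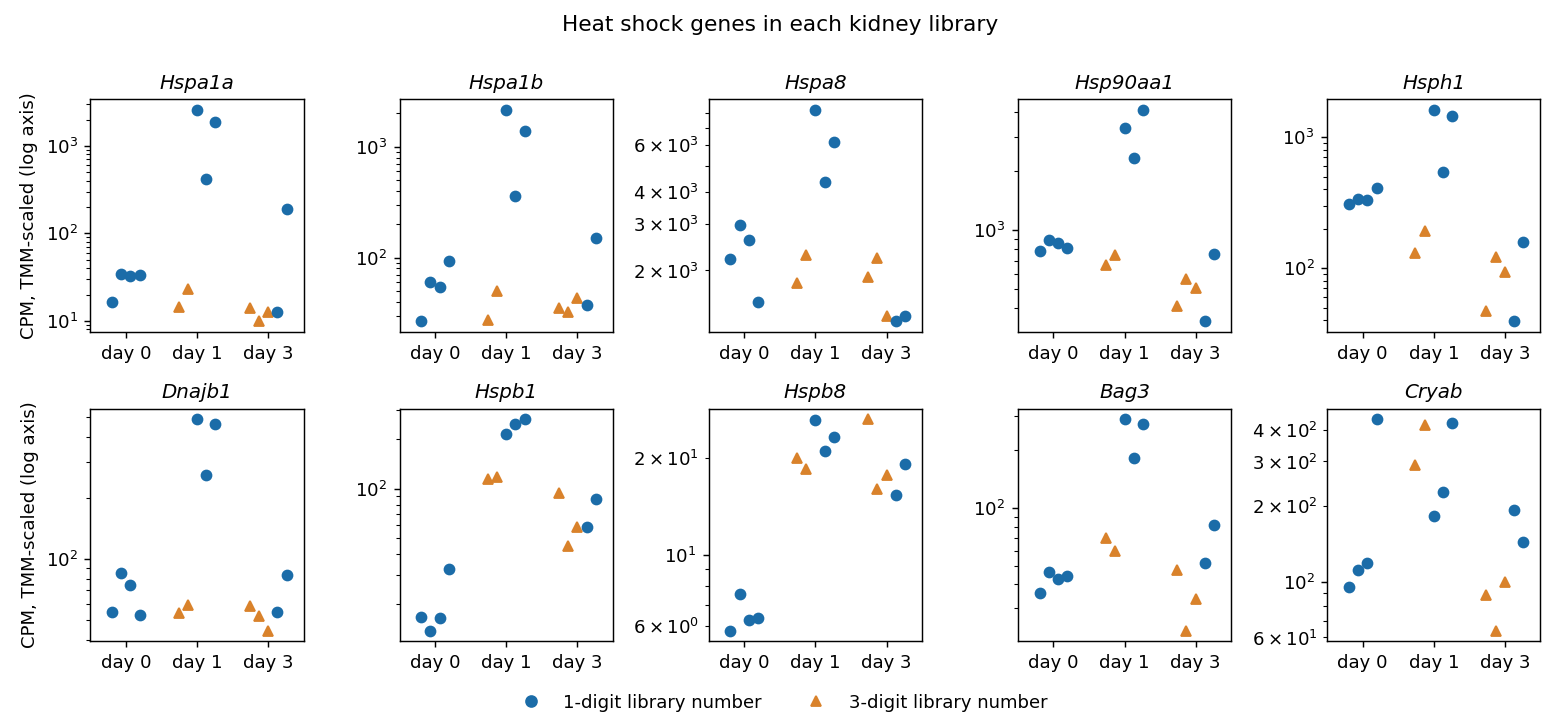
Level of each of the 10 genes in CPM (log axis) in each library at day 0, day 1 and day 3, with circles for 1-digit and triangles for 3-digit library numbers. In Hspa1a, Hspa1b, Hspa8, Hsp90aa1, Hsph1, Dnajb1 and Bag3 the 3 circles of day 1 lie above every other point (Hspa1a 2571, 421 and 1890.0 CPM), while in Hspb1 and Hspb8 all points of days 1 and 3 lie above day 0.

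Hspa1a and Hspa1b encode the stress-inducible cytosolic Hsp70, which is made in response to unfolded protein. At day 1, both rose against day 0, and the rise lay in the 3 libraries with 1-digit numbers. Hspa1a was at 16.4, 34.0, 32.6 and 33.1 CPM in replicates 1 to 4 of day 0. At day 1 it was at 2571, 421 and 1890.0 CPM in the 1-digit libraries (replicates 3, 4 and 5) and at 14.4 and 22.9 CPM in the 3-digit libraries (replicates 1 and 2). The 1-digit libraries of day 1 thus lay above all of day 0, and the 3-digit libraries lay within or just below the range of day 0. At day 3 Hspa1a was at 13.9, 9.85 and 12.7 CPM in the 3-digit libraries (replicates 1, 2 and 3), at 12.8 CPM in 1-digit replicate 4 and at 191 CPM in 1-digit replicate 5, the only library of that day above day 0. The log2 fold change of Hspa1a, day 1 minus day 0, was 5.08 (SE 1.51, adjusted p = 0.0150) by edgeR over all libraries, 5.81 (SE 0.77, adjusted p = 4.44e-05) for the 1-digit libraries alone and -0.64 (SE 0.79, adjusted p = 0.546) for the 3-digit libraries against day 0.

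Hspa1b followed the same order. It was at 26.6, 60.6, 53.8 and 93.7 CPM at day 0, at 2147, 363 and 1394 CPM in the 1-digit and 27.5 and 49.8 CPM in 3-digit libraries of day 1, and at 37.3 and 149 CPM in the 1-digit and 35.3, 32.2 and 43.1 CPM in 3-digit libraries of day 3. In the 3-digit libraries of day 1 its level overlapped that of day 0. Its log2 fold change, day 1 minus day 0, was 3.76 (SE 1.08, adjusted p = 0.0130) by edgeR, 4.47 (SE 0.60, adjusted p = 4.99e-05) within the 1-digit libraries and -0.60 (SE 0.65, adjusted p = 0.480) for the 3-digit libraries against day 0. Hspa1a (ENSMUSG00000091971.3) is on the minus strand of chromosome 17 from 34969190 to 34972156 (GRCm38), and Hspa1b (ENSMUSG00000090877.3) is on the minus strand of chromosome 17 from 34956436 to 34959238. Each has a single exon. The transcripts share 58.8% of the 50-base windows of Hspa1a and 62.3% of those of Hspa1b, and 47.1% and 49.9% of the 100-base windows. Only uniquely mapped reads were counted, and reads that lie wholly in shared stretches map to both. How many were left out depends on the read length, which is not stated here. Both levels may thus be too low, and the split between them is uncertain. With the counts of the pair summed, the log2 fold change, day 1 minus day 0, was 4.34 (SE 1.25, adjusted p = 0.0129 by edgeR).

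The ratio of Hspa1a to Hspa1b reads also differed between the libraries. It was 0.353 to 0.619 at day 0 and 1.16 to 1.36 in 1-digit libraries of day 1. In replicate 5 of day 3 it was 1.28, and in the remaining libraries of days 1 and 3 it was 0.294 to 0.524. The 4 libraries with a ratio above 1 were those with the highest summed level of the pair. The 14 immediate early genes, which include Fos, Jun, Egr1 and Atf3 and are transcribed within minutes of many stimuli, were set beside the pair. Their summed level was 224 to 280.3 CPM at day 0, 2787 to 4451 CPM in the 1-digit and 657 to 900.4 CPM in 3-digit libraries of day 1, and 606 to 928 and 400.2 to 671 CPM in those of day 3. As with the pair, the 3 libraries with the highest sum were the 1-digit libraries of day 1, but Egr2 (2.45 to 4.34 CPM in the 1-digit and 6.67 to 9.91 CPM in 3-digit libraries of day 1) and Myc (56.6 to 60.9 and 71.6 to 82.8 CPM) went the other way. The sum was above the range of day 0 in every library of days 1 and 3, whereas the pair was not above its own range of day 0 in 3-digit libraries of day 1 or in 4 of the 5 libraries of day 3. Their part in the level of the pair was not tested.

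**Figure D2:**
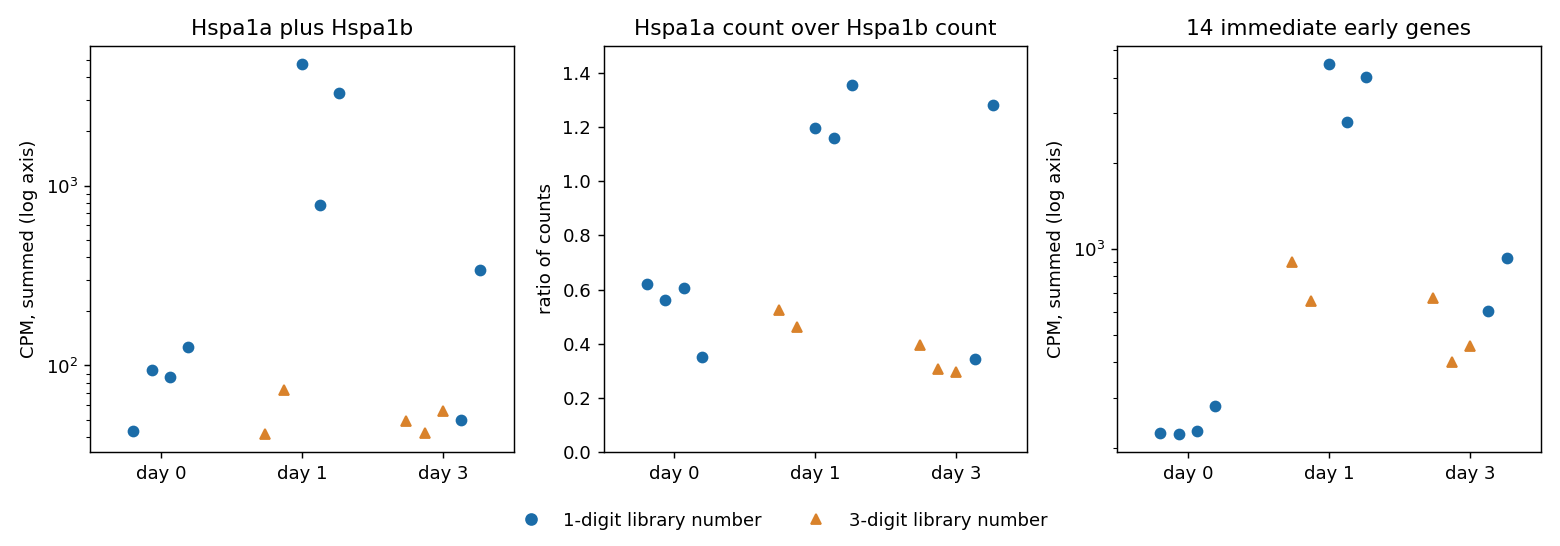
Summed CPM of Hspa1a and Hspa1b (left, log axis), ratio of Hspa1a to Hspa1b counts (middle) and summed CPM of 14 immediate early genes (right, log axis) in each library, with circles for 1-digit and triangles for 3-digit library numbers. The 3 circles of day 1 are the highest in the left and right panels, and those 3 and replicate 5 of day 3 have ratios of 1.16 to 1.36.

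Dnajb1 and Bag3 act directly on Hsp70, Dnajb1 as a J-domain protein that starts its ATPase cycle and Bag3 as an exchange factor that also binds Hspb8 and passes damaged proteins to autophagy. Both rose at day 1. Dnajb1 (ENSMUSG00000005483.10) is on the plus strand of chromosome 8 from 83608193 to 83612653, and Bag3 (ENSMUSG00000030847.8) is on the plus strand of chromosome 7 from 128523616 to 128546981. Dnajb1 was at 55.0, 85.5, 74.3 and 52.9 CPM at day 0, at 487, 259 and 462 CPM in 1-digit libraries of day 1 and at 53.9 and 59.0 CPM in the 3-digit ones. At day 3 it was at 54.5 and 83.3 CPM in the 1-digit and 58.5, 52.1 and 44.3 CPM in the 3-digit libraries. Apart from the 1-digit libraries of day 1, every library thus lay between 44.3 and 85.5 CPM. Its log2 fold change, day 1 minus day 0, was 1.98 (SE 0.56, adjusted p = 0.0123) by edgeR over all libraries and 2.59 (SE 0.24, adjusted p = 3.08e-06) within the 1-digit libraries.

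Bag3 was at 36.3, 46.4, 42.6 and 44.0 CPM at day 0, at 289, 182 and 272 CPM in the 1-digit and 70.2 and 60.1 CPM in 3-digit libraries of day 1, and at 51.8 and 82.0 CPM in the 1-digit and 47.6, 23.0 and 33.5 CPM in 3-digit libraries of day 3. Unlike Hspa1a, Hspa1b and Dnajb1, it was above the whole range of day 0 in 3-digit libraries of day 1 too. By edgeR the log2 fold change of Bag3, day 1 minus day 0, was 2.04 (SE 0.47, adjusted p = 0.00375) over all libraries, 2.55 (SE 0.24, adjusted p = 3.37e-06) within the 1-digit libraries and 0.62 (SE 0.26, adjusted p = 0.0710) for the 3-digit libraries against day 0. Within the 1-digit libraries Bag3 was also higher at day 3 than at day 0, by 0.66 (SE 0.26, adjusted p = 0.0467) by edgeR. This last call was lost when any of 9 single libraries was left out (day 0 replicates 1, 2, 3 and 4, day 1 replicates 1, 2 and 5 and day 3 replicates 3 and 5), with adjusted p from 0.0551 to 0.457, and the log2 fold change was 0.32 (adjusted p = 0.457) without day 3 replicate 5. The annotation places an unclassified transcript on the same strand within Bag3, and the small nucleolar RNA genes Snord14c, Snord14d and Snord14e on the same strand within Hspa8. Whether reads on these stretches were counted for Bag3 and Hspa8 is not known, as the gene models used for the counts are not given.

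Hspa8 encodes the constitutive Hsp70, Hsp90aa1 the stress-inducible form of cytosolic Hsp90 and Hsph1 the Hsp110 that acts as an exchange factor for Hsp70. Hspa8 (ENSMUSG00000015656.17) is on the plus strand of chromosome 9 from 40800984 to 40810087. Hsp90aa1 (ENSMUSG00000021270.13) is on the minus strand of chromosome 12 from 110690605 to 110702728, and Hsph1 (ENSMUSG00000029657.15) is on the minus strand of chromosome 5 from 149614287 to 149636376. Per length these were among the most abundant of the 10 genes at day 0, with Hspa8 at 543 ± 146 RPKM (CPM per kilobase of exons, SD, n = 4), Hsp90aa1 at 213 ± 12.5 RPKM and Hsph1 at 47.8 ± 6.14 RPKM. Cryab, at 129.5 ± 113 RPKM, came between the latter. The others were lower, from 20.9 ± 9.85 RPKM for Hspa1b and 20.9 ± 4.90 RPKM for Dnajb1 through Hspb1 (19.2 ± 8.32 RPKM), Bag3 (16.5 ± 1.69 RPKM) and Hspa1a (9.78 ± 2.83 RPKM) to Hspb8 at 3.32 ± 0.377 RPKM. The ranges of Cryab and Hsp90aa1 overlapped at day 0, as did those of Hspa1a and Hspa1b and those of Hspa1b, Dnajb1, Hspb1 and Bag3, while those of Hspa8, Hsph1 and Hspb8 overlapped no other. In the 1-digit libraries of day 1 the order was Hspa8 (1452 ± 444 RPKM, SD, n = 3), Hsp90aa1 (824 ± 225 RPKM), Hspa1a (548 ± 370.3 RPKM) and Hspa1b (464 ± 319.6 RPKM), each overlapping the next, with Hspb8 lowest at 12.1 ± 1.36 RPKM.

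Hspa8 was at 2207, 2982, 2624 and 1522 CPM at day 0 and at 8179, 4364 and 6197 CPM in 1-digit libraries of day 1, above all others. In the 3-digit libraries of day 1 it was at 1786 and 2291 CPM, and at day 3 at 1278 and 1346 CPM in the 1-digit and 1882, 2226 and 1344 CPM in the 3-digit libraries. The 3-digit libraries of day 1 lay within the range of day 0. Over all libraries the log2 fold change of Hspa8, day 1 minus day 0, was 0.97 (SE 0.39, adjusted p = 0.0594) by edgeR, past the threshold only by DESeq2 (0.98, adjusted p = 0.0265), with the number format as a term (1.09, adjusted p = 0.0280) and without either 3-digit library of day 1 (1.15 (adjusted p = 0.0193) without replicate 1 and 1.14 (adjusted p = 0.0255) without replicate 2). Within the 1-digit libraries it was 1.42 (SE 0.26, adjusted p = 4.67e-04) by edgeR. The term for the number format takes the same format difference on days 1 and 3. Fitted within each day, 3-digit minus 1-digit was -1.62 at day 1 and 0.47 at day 3 for Hspa8.

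Hsp90aa1 was at 780.1, 889, 864 and 813 CPM at day 0, with little spread, at 3299, 2327 and 4095 CPM in the 1-digit and 664 and 750.0 CPM in 3-digit libraries of day 1, and at 343 and 757 CPM in the 1-digit and 408, 563 and 507 CPM in 3-digit libraries of day 3. It was thus below the lowest day 0 library in all 3-digit libraries and in all of day 3. By edgeR its log2 fold change, day 1 minus day 0, was 1.41 (SE 0.46, adjusted p = 0.0240) over all libraries and 1.95 (SE 0.25, adjusted p = 2.91e-05) within the 1-digit libraries. The first of these calls was lost when any of 6 libraries was left out (day 0 replicates 1, 2, 3 and 4 and day 1 replicates 3 and 5), with adjusted p from 0.0508 to 0.0687. Day 3 minus day 0 was -0.70 (SE 0.44, adjusted p = 0.235) over all libraries, -0.72 (adjusted p = 0.0244) with day 1 left out of the fit, and -0.76 (SE 0.25, adjusted p = 0.0318) for the 3-digit libraries by edgeR, a call also lost without any of 6 libraries (day 0 replicates 1, 2, 3 and 4 and day 3 replicates 1 and 3).

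Hsph1 moved in both directions. It was at 311, 334, 330.5 and 412 CPM at day 0, at 1610.0, 540.0 and 1438 CPM in 1-digit libraries of day 1 and at 131 and 191 CPM in the 3-digit ones, and at day 3 it was at 39.2 and 158 CPM in the 1-digit and 47.0, 122 and 93.9 CPM in the 3-digit libraries. Every 1-digit library of day 1 was above day 0, and every 3-digit library of day 1 and every library of day 3 was below it. Day 1 minus day 0 gave a log2 fold change of 1.17 (SE 0.64, adjusted p = 0.152) by edgeR over all libraries, 1.78 (SE 0.44, adjusted p = 0.00387) within the 1-digit libraries and -1.11 (SE 0.53, adjusted p = 0.110) for the 3-digit ones. At day 3 Hsph1 fell against day 0, with -1.92 (SE 0.63, adjusted p = 0.0308) over all libraries, -1.82 (SE 0.55, adjusted p = 0.0139) within the 1-digit libraries and -1.99 (SE 0.47, adjusted p = 0.00667) for the 3-digit libraries by edgeR. The fall over all libraries was not called when any of 6 libraries was left out (day 0 replicates 1, 2, 3 and 4 and day 3 replicates 1 and 4, adjusted p from 0.0537 to 0.0712) or with the number format as a term (-0.86, adjusted p = 0.346), and the fall within the 1-digit libraries was -1.14 (adjusted p = 0.115) without day 3 replicate 4.

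Hspb1 and Hspb8, small heat shock proteins of which Hspb1 also binds actin filaments and Hspb8 is the partner of Bag3, rose in both number formats and on both days. Hspb1 (ENSMUSG00000004951.10) is on the plus strand of chromosome 5 from 135887919 to 135889563, and Hspb8 (ENSMUSG00000041548.4) is on the minus strand of chromosome 5 from 116408491 to 116422864. Hspb1 was at 16.6, 13.7, 16.4 and 32.5 CPM at day 0, at 215, 247 and 264 CPM in the 1-digit and 114 and 117 CPM in 3-digit libraries of day 1, and at 58.5 and 86.3 CPM in the 1-digit and 94.4, 44.9 and 58.4 CPM in 3-digit libraries of day 3. All 10 libraries of days 1 and 3 were above the highest of day 0. By edgeR its log2 fold change against day 0 was 3.27 (SE 0.36, adjusted p = 2.95e-05) at day 1 and 1.79 (SE 0.34, adjusted p = 0.00155) at day 3. Within the formats, day 1 minus day 0 was 3.61 (SE 0.30, adjusted p = 1.82e-06) for the 1-digit and 2.55 (SE 0.32, adjusted p = 7.43e-05) for the 3-digit libraries, and day 3 minus day 0 was 1.87 (SE 0.32, adjusted p = 4.00e-04) and 1.74 (SE 0.29, adjusted p = 7.06e-04) by the same edgeR test. From day 1 to day 3 Hspb1 fell by 1.48 (SE 0.31, adjusted p = 0.00808) on the log2 scale by edgeR.

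Hspb8 was at 5.81, 7.53, 6.25 and 6.35 CPM at day 0, at 26.3, 21.0 and 23.2 CPM in the 1-digit and 20.04 and 18.4 CPM in 3-digit libraries of day 1, and at 15.3 and 19.2 CPM in the 1-digit and 26.4, 16.0 and 17.7 CPM in 3-digit libraries of day 3. The lowest library after IRI had over 2 times the level of the highest library of day 0, and days 1 and 3 overlapped. Against day 0 the log2 fold change was 1.75 (SE 0.18, adjusted p = 2.32e-05) at day 1 and 1.54 (SE 0.18, adjusted p = 7.20e-05) at day 3 by edgeR, and day 3 minus day 1 was -0.20 (SE 0.16, adjusted p = 0.413). For the 3-digit libraries against day 0 the edgeR values were 1.57 (SE 0.20, adjusted p = 8.08e-05) at day 1 and 1.63 (SE 0.18, adjusted p = 3.48e-05) at day 3. The calls of Hspb1 and Hspb8 against day 0, over all libraries and within each format, held without any single library.

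Cryab encodes αB-crystallin, a small heat shock protein of lens and muscle that in the kidney is known from the medulla. Cryab (ENSMUSG00000032060.10) is on the plus strand of chromosome 9 from 50751325 to 50756636. It was measured at 95.1, 111, 119 and 441 CPM in replicates 1 to 4 of day 0, at 182, 227 and 425 CPM in the 1-digit and 290.2 and 420.3 CPM in 3-digit libraries of day 1, and at 192 and 144 CPM in the 1-digit and 88.6, 63.8 and 99.3 CPM in 3-digit libraries of day 3. Replicate 4 stood apart from the other 3 libraries of day 0 and was the highest of all 14. The edgeR log2 fold change, day 1 minus day 0, was 0.69 (SE 0.46, adjusted p = 0.235) with it and 1.51 (adjusted p = 0.00761) without it. Day 3 minus day 0 was -0.71 (SE 0.45, adjusted p = 0.238) with it and 0.11 (adjusted p = 0.823) without it by edgeR. The same library had the highest summed level of day 0 for the 8 urothelium markers (52.6 CPM against 4.0 to 10.6 CPM in the other 3). Its summed level of the 10 smooth muscle markers was also the highest (284 CPM against 221 to 230.4 CPM). Among these, Des was at its lowest of day 0 in it (9.31 CPM), and Smtn and Lmod1 were not at their highest. The 9 collecting duct markers summed to 1255 CPM in it against 961.8 to 1092 CPM, with the water channel gene Aqp2, Avpr2 and Slc26a4 at their highest of day 0 and Aqp3, Fxyd4 and Hsd11b2 at their lowest. The 6 inner medulla and osmotic response markers summed to 878.3 CPM against 903.8 to 1164 CPM, with Slc14a2 and Nfat5 at their highest, Slc5a3 and Slc6a6 at their lowest and Akr1b3 listed at 0 in every library. The part of these markers in the level of Cryab was not tested. Cryab was the only one of the 10 genes whose 3-digit minus 1-digit difference was above 0 at day 1, at 0.35 (SE 0.56, adjusted p = 0.653) by edgeR. Hspb2 overlaps it on the opposite strand, and reads of that strand made up at most 1.70% of those on Cryab.

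The comparison of the days asks which chaperone genes the injured kidney had changed at each time. At day 1, 7 of the 10 genes were higher than at day 0 by edgeR, where 42.1% of all genes tested were called and 23.3% were higher. The genes that rose were Hspa1a, Hspa1b, Hsp90aa1, Dnajb1, Hspb1, Hspb8 and Bag3, and their median log2 fold change with the other 3 included was 1.86, against 0.01 over all genes tested. At day 3, 2 were higher (Hspb1 and Hspb8) and 1 lower (Hsph1) than at day 0, where 33.3% of all genes were called, 19.5% higher and 13.8% lower. This share is close to that of the 10 genes. With the number format as a term beside the day, Hspa1a (3.01, adjusted p = 0.0255) and Bag3 (0.97, adjusted p = 0.0156) were also called higher at day 3 by edgeR, and Hsph1 was no longer called. That term takes the same format difference on days 1 and 3, so the difference of 1 day enters the estimate of the other. Fitted within days 1 and 3, 3-digit minus 1-digit was -6.44 and -3.06 for Hspa1a, -1.93 and -0.95 for Bag3, and -2.89 and -0.17 for Hsph1. Hspa1a was not called within the 1-digit libraries alone, at 1.81 (SE 0.74, adjusted p = 0.0522), and without replicate 5 of day 3 it was -1.16 (adjusted p = 0.238) there and -1.23 (adjusted p = 0.432) over all libraries by edgeR. Its level in the other 4 libraries of day 3 was below the range of day 0. From day 1 to day 3, 9 of the 10 genes fell, all but Hspb8, where 15.9% of all genes were called and 7.39% fell. The largest of these falls were in Hspa1a (-4.36, SE 1.32, adjusted p = 0.0379), Hspa1b (-3.75, SE 0.99, adjusted p = 0.0217) and Hsph1 (-3.09, SE 0.64, adjusted p = 0.00789) by edgeR.

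The calls of Hspa1a, Hspa1b and Cryab from day 1 to day 3 did not hold without some of the single libraries. That of Hspa1a was lost without any of day 0 replicates 1, 2 and 3, day 1 replicates 3, 4 and 5 and day 3 replicates 1, 2, 3 and 4 (adjusted p from 0.0511 to 0.0872), and that of Hspa1b without any of day 1 replicate 3 and day 3 replicates 1, 3 and 4 (adjusted p from 0.0519 to 0.0574). That of Cryab, -1.39 (SE 0.43, adjusted p = 0.0422) by edgeR, was lost without any of day 0 replicate 3, day 1 replicates 2, 4 and 5 and day 3 replicates 1, 2 and 3 (adjusted p from 0.0507 to 0.0987). Hspa8, Hsp90aa1, Hsph1, Dnajb1, Hspb1 and Bag3 were still called without any single library in this comparison. With the number format as a term (the same format difference on both days), the fall was -2.34 (adjusted p = 0.0861) for Hspa1a, -1.95 (adjusted p = 0.134) for Hspa1b and -1.21 (adjusted p = 0.0504) for Hspa8. With day 0 left out of the fit it was -4.38 (adjusted p = 0.0914) for Hspa1a and -3.76 (adjusted p = 0.0594) for Hspa1b, and with total counts -1.27 (adjusted p = 0.0663) for Cryab by edgeR.

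Within the 1-digit libraries, 9 of the 10 genes were higher at day 1 than at day 0 by edgeR, all but Cryab, where 58.5% of all genes were called and 28.9% were higher. For the 3-digit libraries of day 1 against day 0 only Hspb1 and Hspb8 were called, both higher, where 41.6% of all genes were called and 22.6% were higher. Without day 0 replicate 4, Cryab was called higher in both comparisons by edgeR. It was then at 1.36 (adjusted p = 0.00181) within the 1-digit libraries and 1.71 (adjusted p = 0.00139) for the 3-digit libraries. Within the 1-digit libraries at day 3, Hspb1, Hspb8 and Bag3 were higher than at day 0 and Hspa8 and Hsph1 lower, 3 and 2 of the 10 where 53.7% of all genes were called, 28.6% higher and 25.1% lower. The call of Hspa8, -0.83 (SE 0.31, adjusted p = 0.0350) by edgeR, was lost without any of day 0 replicates 1, 2 and 3 and day 3 replicates 4 and 5. For the 3-digit libraries of day 3, Hspb1 and Hspb8 were higher than day 0 and Hsp90aa1 and Hsph1 lower, where 32.4% of all genes were called, 19.1% higher and 13.3% lower. From day 1 to day 3, 8 of the 10 genes fell within the 1-digit libraries, all but Hspb8 and Cryab (32% of all genes called, 15.5% lower), and 2 fell within the 3-digit libraries, Bag3 and Cryab (13.9% of all genes called, 6.41% lower). These last values were -0.91 (SE 0.28, adjusted p = 0.0456) for Bag3 and -2.08 (SE 0.56, adjusted p = 0.0287) for Cryab by edgeR. The first was lost without any of day 0 replicates 1, 2, 3 and 4, day 1 replicates 1, 2 and 5 and day 3 replicates 2 and 3, and the second without any of day 1 replicates 1 and 2 and day 3 replicates 2 and 3.

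**Figure D3:**
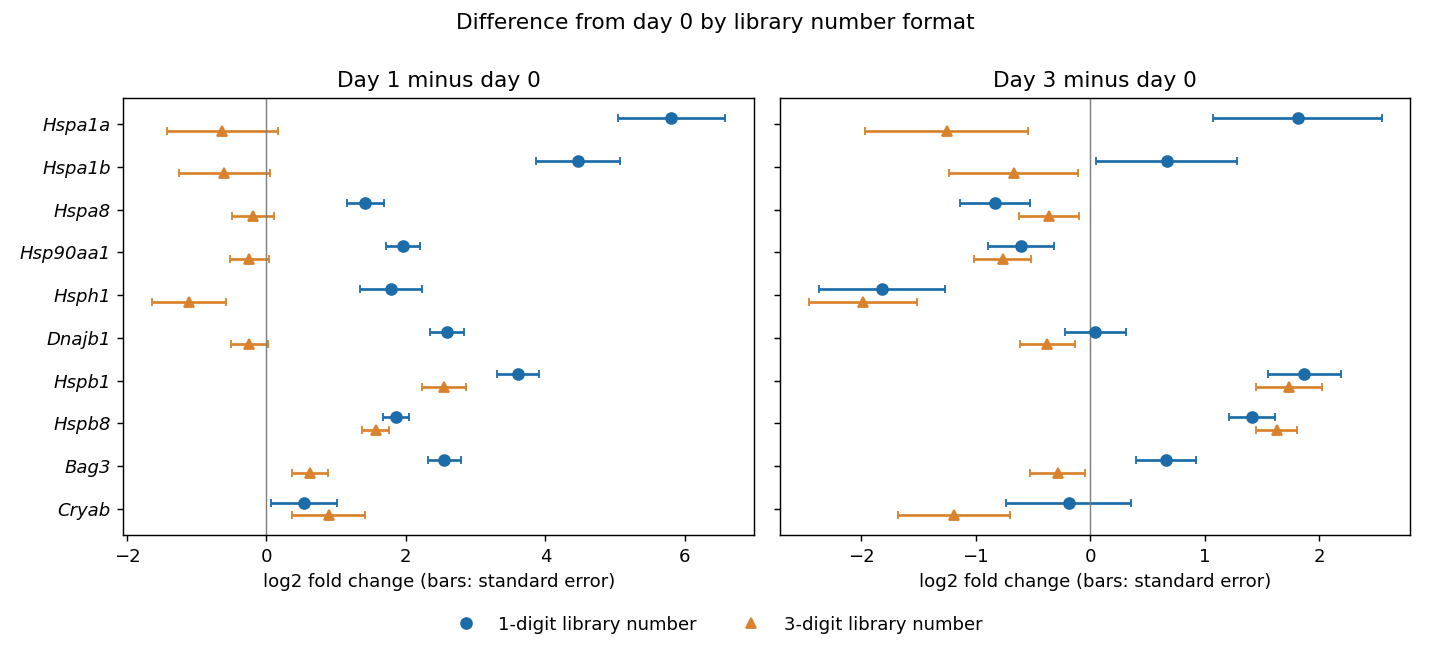
Log2 fold change of each gene against day 0 (x axis, bars show the standard error) at day 1 (left) and day 3 (right), for libraries with 1-digit (circles) and 3-digit (triangles) numbers. At day 1 the 2 formats lie apart in Hspa1a (5.81 and -0.64), Hspa1b, Hspa8, Hsp90aa1, Hsph1, Dnajb1 and Bag3, and both are to the right of 0 in Hspb1 and Hspb8.

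Since most of the rise at day 1 lay in libraries of 1 number format, the formats were compared within each day. At day 1, 8 of the 10 genes had lower levels in 3-digit libraries than in 1-digit libraries by edgeR, where 35% of all genes were called and 16.4% were lower. The 3-digit minus 1-digit difference was -6.44 (SE 1.09, adjusted p = 0.00108) for Hspa1a, -5.07 (SE 0.84, adjusted p = 9.54e-04) for Hspa1b, -2.89 (SE 0.60, adjusted p = 0.00324) for Hsph1 and -2.83 (SE 0.31, adjusted p = 1.37e-04) for Dnajb1 by edgeR. For Hsp90aa1 it was -2.20 (SE 0.32, adjusted p = 4.87e-04), for Bag3 -1.93 (SE 0.30, adjusted p = 6.85e-04) and for Hspa8 -1.62 (SE 0.33, adjusted p = 0.00297) by the same edgeR test. Ordered from the highest log2 fold change of this comparison, Hspa1a stood at place 14298 and Hspa1b at place 14288 of the 14300 genes tested. Hspb1 differed least among those called, -1.06 (SE 0.35, adjusted p = 0.0328) by edgeR, and its call was lost without any of day 1 replicates 1, 2, 4 and 5 (adjusted p from 0.0660 to 0.148) and with total counts in place of TMM (-0.85, adjusted p = 0.0733). Hspb8 was at -0.29 (SE 0.21, adjusted p = 0.304).

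At day 3, Hspa1a and Bag3 were lower in the 3-digit libraries, 2 of the 10 genes where 18.5% of all genes were called and 8.22% were lower. For Hspa1a the edgeR difference was -3.06 (SE 0.82, adjusted p = 0.0252), and -0.09 (adjusted p = 0.956) without replicate 5 of day 3, -2.93 (adjusted p = 0.0765) without replicate 2 and -3.08 (adjusted p = 0.0737) without replicate 3. For Bag3 it was -0.95 (SE 0.28, adjusted p = 0.0338), and -0.60 (adjusted p = 0.303) without replicate 5, -0.72 (adjusted p = 0.0948) without replicate 2 and -0.92 (adjusted p = 0.0868) without replicate 3 by edgeR. The 3-digit minus 1-digit difference was higher at day 3 than at day 1 in Hspa1b (3.74, SE 1.01, adjusted p = 0.0225), Hspa8 (2.09, SE 0.46, adjusted p = 0.00814), Hsp90aa1 (2.04, SE 0.43, adjusted p = 0.00678), Hsph1 (2.73, SE 0.79, adjusted p = 0.0309) and Dnajb1 (2.42, SE 0.41, adjusted p = 0.00249), by edgeR's test of day 3 minus day 1 of the format difference. These are 5 of the 10 genes, where 17.6% of all genes were called and 9.1% were higher. Hspa1a was at 3.38 (SE 1.21, adjusted p = 0.0708) in this test, and 6.36 (adjusted p = 0.00553) without replicate 5 of day 3 and 3.84 (adjusted p = 0.0342) without replicate 4 of day 1. The call of Hspa1b was lost without either of day 1 replicate 1 and day 3 replicate 4, and that of Hsph1 without any of day 1 replicates 1, 2, 3 and 5 and day 3 replicates 2 and 4.

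Other gene lists were compared by number format at day 1. Of the 14 immediate early genes, 11 were lower and 1 higher in the 3-digit libraries by edgeR. Of the 10 proximal tubule markers, 5 were lower there. Their summed level was 49781 to 53426 CPM at day 0, 43034 to 55104 CPM in the 1-digit and 20941 to 32819.7 CPM in the 3-digit libraries, with much of it from Kap (26716 to 32601 CPM in the 1-digit libraries). Lrp2 did not follow the sum, with 3085 to 3434 CPM at day 0, 650.2 to 1343 CPM in the 1-digit and 433 to 556 CPM in the 3-digit libraries, and Cubn, the receptor that pairs with it, had 464 to 587, 173 to 264 and 107 to 171 CPM. Of the 8 tubular injury genes, 2 were higher and 1 lower in the 3-digit libraries by edgeR. Spp1, which carries most of their sum, was at 6342 to 12059 CPM in the 1-digit and 24388 to 29945 CPM in the 3-digit libraries, and Havcr1 at 30.5 to 151 and 1859 to 3013 CPM. Cdkn1a went the other way, at 446 to 699.5 and 126 to 229 CPM. The skeletal muscle list differed through Pvalb, a gene that the distal convoluted tubule also expresses, at 45.4 to 70.9 CPM in the 1-digit and 3.86 to 4.58 CPM in the 3-digit libraries, while its other 8 genes stayed below 1.5 CPM. Of the other marker lists, the summed level of 8 macrophage markers was 132 to 199 CPM in the 1-digit and 321 to 339.9 CPM in 3-digit libraries of day 1, with 1 of the 8 higher by edgeR. Much of that sum came from Cd14, at 54.3 to 114 CPM in the 1-digit and 186 to 220 CPM in the 3-digit libraries. Csf1r (24.2 to 33.4 and 26.1 to 30.4 CPM) and Itgam (5.43 to 10.1 and 8.04 to 12.9 CPM) overlapped between the formats. The collecting duct markers summed to 625 to 876 and 945 to 959 CPM, with 2 of 9 higher and 1 lower. The inner medulla and osmotic response markers summed to 421 to 539.5 and 827 to 847 CPM, with 1 of the 5 tested higher and 1 lower by edgeR. Among them Slc14a2 was at 0 to 7.88 CPM in the 1-digit and 119 to 228 CPM in the 3-digit libraries, against 65.7 to 102 CPM at day 0. Nfat5 went the other way, at 122 to 146 and 99.1 to 99.8 CPM. Over all genes 35% were called in this comparison and 16.4% were lower, so the called shares of the macrophage, collecting duct and injury lists were near or below the background. The smooth muscle markers are given with the other chaperone genes. The part of these genes in the level of the 10 chaperone genes was not tested.

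**Figure D4:**
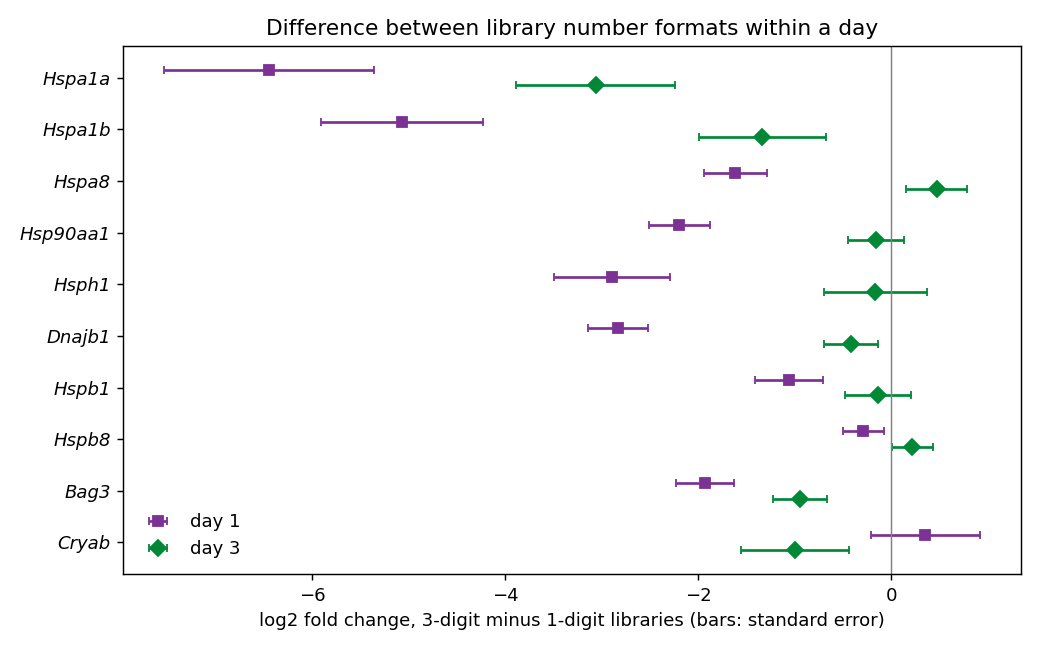
Log2 fold change of 3-digit minus 1-digit libraries (x axis, bars show the standard error) for each gene at day 1 (squares) and day 3 (diamonds). At day 1, 8 genes lie well below 0, from -6.44 in Hspa1a to -1.06 in Hspb1, and at day 3 Hspa1a lies farthest from 0, at -3.06.

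The other chaperone genes were examined in 9 lists of 67 genes, of which 66 were in the files and 63 were tested. At day 1, 19 of the 63 were higher than at day 0 and 12 lower by edgeR, with a median log2 fold change of 0.08 over the 63. These were 49.2% of the 63, 30.2% higher, against 42.1% of all genes tested, 23.3% higher. Of the 8 subunits of TRiC, the cytosolic chaperonin that folds actin and tubulin, 7 were higher than at day 0. Within the 1-digit libraries 7 of the 8 were higher (28.9% of all genes), and so were 7 of the 8 in the 3-digit libraries against day 0 (22.6% of all genes). Their summed level was 1514 to 1737 CPM at day 0, 2309 to 2627 CPM in the 1-digit and 2343 to 2461 CPM in 3-digit libraries of day 1. The genes that rose most were Bag2, an exchange factor of Hsp70, by 2.17 (SE 0.33, adjusted p = 2.61e-04), and Hspb7, a small heat shock protein of heart muscle, by 2.03 (SE 0.44, adjusted p = 0.00263) on the log2 scale by edgeR. Next were the J-domain proteins Dnajb4 at 1.27 and Dnajb5 at 0.99, the mitochondrial co-chaperonin Hspe1 at 1.11 and the small heat shock protein Hspb6 at 0.97. The genes that fell most were Sdf2l1 of the endoplasmic reticulum (ER), -1.61 (SE 0.29, adjusted p = 8.51e-04), and the mitochondrial J-domain protein Dnaja3, -1.03 (SE 0.29, adjusted p = 0.0106) by edgeR, followed by Ahsa2, a relative of the activator of the Hsp90 ATPase (-0.93), Bag4 (-0.91), the ER Hsp110 Hyou1 (-0.87) and the ER J-domain protein Dnajc3 (-0.83).

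At day 3, 4 of the 63 were higher than at day 0 and 22 lower by edgeR, 6.35% and 34.9%, against 19.5% and 13.8% of all genes tested. Those that rose were Bag2 (2.19, SE 0.33, adjusted p = 3.50e-04), Hspb7 (1.47, SE 0.43, adjusted p = 0.0181), Hspb6 (1.27, SE 0.37, adjusted p = 0.0172) and Fkbp5, an Hsp90 partner that is induced by glucocorticoids (1.34, SE 0.36, adjusted p = 0.0126). Bag2 was called higher in each format on both days, as Hspb1 and Hspb8 were, at 1.55 and 2.28 in the 1-digit and 2.78 and 2.13 in 3-digit libraries of day 1 and day 3. Hspb6 and Hspb7 were called higher on both days over all libraries, but not in each format. Against day 0, Hspb6 was at 0.30 (SE 0.29, adjusted p = 0.395) in 1-digit libraries of day 1, and Hspb7 at 0.89 (SE 0.37, adjusted p = 0.0839) in 3-digit libraries of day 3 by edgeR. Lower were 6 of 11 in the Hsp90 list, among them Chordc1 (-1.75), Fkbp4 (-1.33) and Ahsa2 (-1.06), and 5 of 8 ER chaperones, among them Sdf2l1 (-1.24) and Hyou1 (-1.15). The J-domain protein Dnaja1 was at -1.34 (SE 0.44, adjusted p = 0.0291) by edgeR. From day 1 to day 3, 20 fell and 1 rose, Bag4 at 0.72 (SE 0.20, adjusted p = 0.0285), in all 33.3% of the 63 against 15.9% of all genes. These 21 calls became 8 with day 0 left out of the fit, 10 with total counts, and 11, 13 and 12 without day 1 replicate 3, day 1 replicate 5 or day 3 replicate 1, and the 26 calls of day 3 minus day 0 became 17 without day 0 replicate 3. The share of all genes called at these settings is not given here. The largest falls were in Dnaja1 (-1.68), Hspe1 (-1.56), Hsp90ab1, the constitutive Hsp90 (-1.38), Hspd1 (-1.31), Dnaja4 (-0.94) and Ptges3 (-0.93).

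Of the heat shock factors, Hsf1, the main factor of the heat shock response, was at -0.09 (SE 0.19, adjusted p = 0.732) at day 1 and lower at day 3, -0.81 (SE 0.19, adjusted p = 0.00622) by edgeR. Hsf2, a related factor, was at 0.47 (SE 0.19, adjusted p = 0.0626) at day 1 over all libraries and rose within the 1-digit libraries, 0.69 (SE 0.15, adjusted p = 0.00194) by edgeR.

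By number format at day 1, 17 of 63 were lower and 6 higher in the 3-digit libraries by edgeR, 36.5% of the list, near the 35% of all genes, with 27% lower against 16.4%. Lowest were Dnaja1 (-2.17, SE 0.31, adjusted p = 4.18e-04), Hspe1 (-2.01, SE 0.22, adjusted p = 1.22e-04), the ER Hsp70 Hspa5 (-1.87, SE 0.29, adjusted p = 6.26e-04) and Hspd1, the mitochondrial Hsp60 (-1.48, SE 0.19, adjusted p = 2.65e-04). Dnaja4 (-1.47) and Dnajb4 (-1.42) followed. Highest were Hspa12b (1.93, SE 0.40, adjusted p = 0.00336), an Hsp70 relative known from endothelium, Hspb6 (1.31, SE 0.33, adjusted p = 0.00865), Bag2 (1.24, SE 0.25, adjusted p = 0.00270) and Dnaja3 (1.16, SE 0.20, adjusted p = 0.00117), with Bag4 (0.59) and Hspa14 (0.54) next. The summed level of the 10 smooth muscle markers was 356 to 438 CPM in the 1-digit and 626 to 694 CPM in 3-digit libraries of day 1, against 221 to 284 CPM at day 0, and 8 of the 10 were higher in the 3-digit libraries by edgeR, while Smtn was at 192 to 236 CPM in the 1-digit and 133 to 163 CPM in the 3-digit libraries. At day 3 the sum was 857 to 1065 CPM in the 1-digit and 405 to 421 CPM in the 3-digit libraries, whereas Bag2 (57.3 and 77.8 CPM against 41.7 to 79.7 CPM) and Hspb6 (9.54 and 12.7 CPM against 5.57 to 13.3 CPM) overlapped. The part of these markers in the results was not tested. Of the 63 chaperone genes, 6 were higher at day 3 in the 3-digit libraries, led by Hspa12a (1.69) and Chordc1 (1.56), and 3 lower (Bag5, Hspbp1 and Cct2), 14.3% of the list against 18.5% of all genes. Single libraries decided this count, which was 17, 4, 3 and 0 by edgeR without day 3 replicates 1, 2, 3 and 5, and that of day 1 was 15 without day 1 replicate 2.

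Within the 1-digit libraries, 28 of 63 were higher and 16 lower at day 1 than at day 0 by edgeR, 69.8% of the list against 58.5% of all genes, with Hspb7 (2.26), Dnajb4 (1.68) and Hspe1 (1.62) the highest and Hspa12b (-1.70) and Sdf2l1 (-1.68) the lowest. Of 8 cytosolic J-domain proteins, 6 were higher there, while 3 were lower in the 3-digit libraries against day 0. The 3-digit libraries of day 1 had 13 higher and 17 lower than day 0, 47.6% against 41.6% of all genes, with Bag2 highest (2.78). At day 3 against day 0 there were 9 higher and 27 lower in the 1-digit, and 3 and 24 in the 3-digit libraries, 57.1% and 42.9% of the list against 53.7% and 32.4% of all genes. From day 1 to day 3, 4 rose and 27 fell within the 1-digit libraries, and 2 and 13 within the 3-digit ones, 49.2% and 23.8% against 32% and 13.9%. The number format difference changed from day 1 to day 3 in 16 of the 63, 12 higher and 4 lower (25.4% against 17.6% of all genes), led by Dnaja1 (2.32). Without day 1 replicate 1 the calls numbered 9 for this change, 15 for the 3-digit libraries of day 1 against day 0 and 1 for day 3 minus day 1 within the 3-digit libraries, where 3 were left without day 1 replicate 2 and 9 without day 3 replicate 3.

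**Figure D5:**
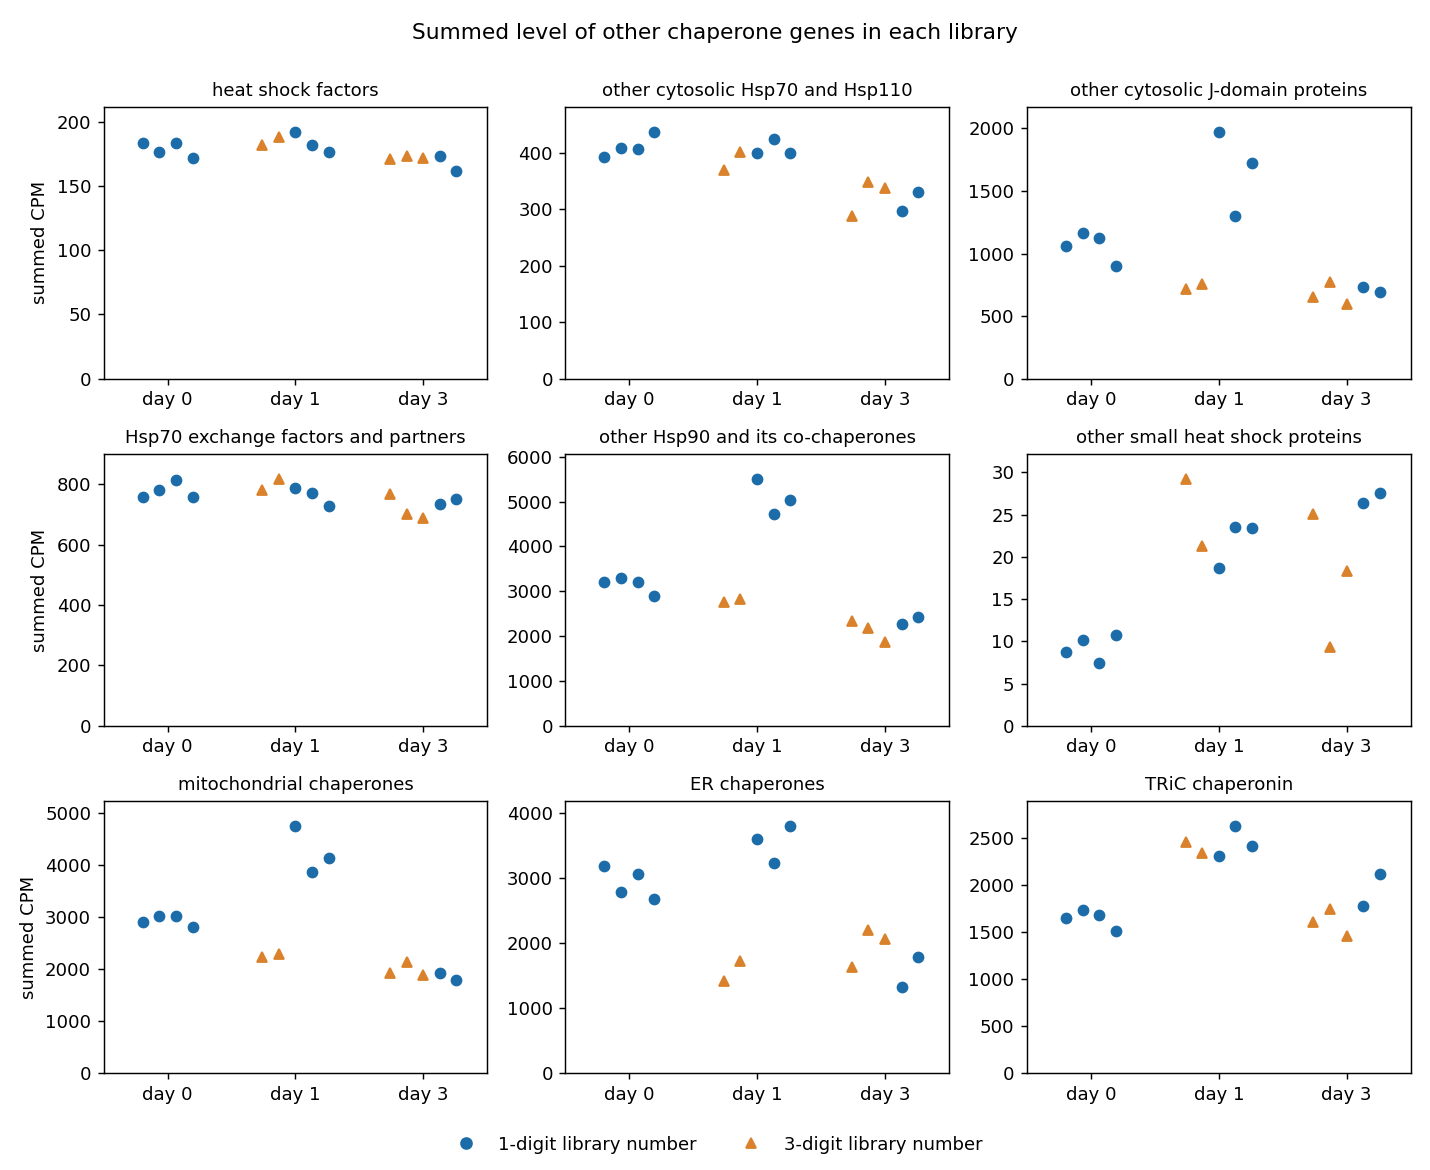
Summed CPM of each of the 9 lists of other chaperone genes (y axis from 0) in each library at day 0, day 1 and day 3, with circles for 1-digit and triangles for 3-digit library numbers. The 3 circles of day 1 are the highest points for the J-domain (1302 to 1973 CPM), Hsp90, mitochondrial and ER lists, whereas in the TRiC list the circles and triangles of day 1 lie together.

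Finally, genes outside the 10 were ranked by how near their pattern over the 14 libraries came to that of Hspa1a, as the mean absolute difference of log2 CPM scaled to unit SD, among 10974 genes with a mean of at least 5 CPM. Among the 5 nearest were Cd274 (0.229 SD), Akirin2 (0.253 SD), Scaf8 (0.258 SD) and Gpatch3 (0.260 SD). The same measure placed Hspa1b at 0.145 SD and Dnajb1 at 0.181 SD from Hspa1a, nearer than any gene outside the 10. The other 7 of the 10 were farther from it than those 5 genes, from Bag3 at 0.294 SD to Hspb8 at 0.998 SD. The 5 nearest the mean pattern of the 10 genes were Bud31 (0.207 SD), Cdk11b (0.215 SD), Akirin2 (0.224 SD), Icosl (0.234 SD) and Nup50 (0.240 SD). These are descriptions over libraries that share their day and format. Cd274, for example, was at 11.03 to 13.4 CPM in 1-digit libraries of day 1 and at 2.48 to 2.63 CPM in the 3-digit ones, with 3.24 to 3.93 CPM at day 0.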

How the data were processed

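Counts of uniquely mapped reads per gene, deposited by the authors as STAR output with 1 file per library, were used for all 14 libraries. The submitters' processing notes name Trimmomatic, STAR and mm10, with the versions and gene models not given in the sources used here. The deposited counts are raw. The strand column that held 98.5% to 98.7% of the strand-assigned reads was taken, and the 4 entries that name no gene, with 29.0% to 38.3% of a library's reads, were left out. In R 4.3.3 with edgeR 4.0.16, counts were filtered with filterByExpr (14300 genes kept), scaled by TMM and tested by the quasi-likelihood test in 1 fit with a term per day and 1 fit with a term per day and number format, with Benjamini-Hochberg adjustment over all genes tested. The SE was derived from the F value. Log2 CPM used a prior count of 2, and RPKM the exon length of GENCODE M21. The scripts were tested on simulated data. The 10 genes were given, and Hsf1, Hsf2 and, in each comparison, up to 6 chaperone genes that rose and 6 that fell most (adjusted p under 0.05, mean of at least 1 CPM) could be named, with the 5 genes nearest in pattern, of which 1 is not reported here. The genes and lists were chosen with earlier results of these data known. Alternatives were counts from both strands, total counts or RLE factors for scaling, a filter of 10 counts in each library or none, DESeq2 1.42.0, calls limited to changes of at least 1 on the log2 scale, the Hspa1a and Hspa1b counts added together, a prior count of 0.5, a block for the replicate number, a term for the number format beside the day, fits of 2 days alone, and omission of each library in turn. Promoters were read from RefSeq windows of GRCm38.p6.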

Additional observations from a re-analysis of the deposited data

Results flagged for a closer look

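In 4 of the 30 groups of 1 gene on 1 day, 1 library lay far from the others on the log2 CPM scale. A rate of about 1 in 20 groups, or 1.5 of 30, holds only for independent groups of like libraries. The genes share libraries and days 1 and 3 hold both number formats, so the 4 cannot be set against that rate. Hspa1a in replicate 1 of day 0 was at 4.05, below the other libraries of day 0 at 5.03 to 5.09. Hspa1a in replicate 5 of day 3 was at 7.58, above the others at 3.32 to 3.81, and Hspa1b in the same library was at 7.22, above the others at 5.01 to 5.43. Cryab in replicate 4 of day 0 was at 8.79, above the others at 6.57 to 6.89.

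The difference between the number formats changed from day 1 to day 3 by edgeR's test of that change. It was 3.74 (adjusted p = 0.0225) on the log2 scale for Hspa1b, 2.09 (adjusted p = 0.00814) for Hspa8, 2.04 (adjusted p = 0.00678) for Hsp90aa1, 2.73 (adjusted p = 0.0309) for Hsph1 and 2.42 (adjusted p = 0.00249) for Dnajb1. In each of these genes the 3-digit libraries were far lower than the 1-digit libraries at day 1, and at day 3 the difference was not past the threshold of the same edgeR fit.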

How the results depend on the processing

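Of the fold changes of the 10 genes recomputed under the alternatives, 2531 kept their direction and side of the threshold, 108 lost the call, 28 gained it and 39 changed sign, the last 39 not being called with or without the alternative. The cause of these changes was not tested. The share of all genes called under each alternative is not given here, so the counts of calls below cannot be set against it. With calls limited to changes of at least 1 on the log2 scale, the count of the 10 genes was 3 in place of 5 for day 3 minus day 0 within the 1-digit libraries, and 1 in place of 2 for day 3 minus day 1 within the 3-digit libraries and for the formats at day 3. Hsp90aa1 for the 3-digit libraries of day 3 against day 0 (-0.76) also lost its call under that limit. Of the other chaperones it left 6 of 31 for day 1 and 11 of 26 for day 3 against day 0, 4 of 21 for day 3 minus day 1, 12 of 23 and 3 of 9 for the formats at day 1 and day 3, 12 of 44, 17 of 36 and 13 of 31 within the 1-digit libraries, and 10 of 30, 7 of 27 and 1 of 15 for the 3-digit libraries (day 1 and day 3 against day 0, and day 3 minus day 1). With Hspa1a and Hspa1b summed, 1 gene in place of 2 was called for the formats at day 3. Total counts gave 1 in place of 2 of the 10 genes for day 3 minus day 1 within the 3-digit libraries and 10 in place of 21 other chaperones for day 3 minus day 1, and moved the median of all genes from 0.03 to 0.24 for the formats at day 1 and from 0.05 to 0.19 for day 3 minus day 0. With only the 2 days compared, 8 in place of 21 other chaperones were called for day 3 minus day 1. The unclear signs lay near 0: Hspa1b, day 3 minus day 0, was -0.0071 with RLE size factors, -0.029 with no filter, -0.0025 with at least 10 counts in every library, -0.0058 by DESeq2 and -0.0063 with only the 2 days compared, and Dnajb1 within the 1-digit libraries was -0.011 with no filter. With the number format as a term, Hsph1 for day 1 minus day 0 (1.381, adjusted p = 0.04996) was gained by edgeR, and day 3 minus day 0 was 0.088 for Hsp90aa1 and 0.88 for Dnajb1. Within the formats, Bag3 for day 3 minus day 0 (1-digit) was lost with RLE size factors (0.64, adjusted p = 0.0522) and no filter (0.61, adjusted p = 0.0599), and total counts lost Hspa8 for day 3 minus day 0 (1-digit, -0.71 (adjusted p = 0.0507)) and Hsp90aa1 for day 3 minus day 0 (3-digit, -0.60 (adjusted p = 0.0937)) by edgeR. Gained were Hspa1a for day 3 minus day 0 (1-digit) with total counts (1.97, adjusted p = 0.0383) and no filter (1.75, adjusted p = 0.0481), Bag3 for 3-digit day 1 minus day 0 with total counts (0.72, adjusted p = 0.0382), and by DESeq2 Hspa1a for the change of the format difference (3.43, adjusted p = 0.0382), Hsp90aa1 for day 3 minus day 0 (1-digit, -0.63 (adjusted p = 0.0434)) and Hsph1 for 3-digit day 1 minus day 0 (-1.13, adjusted p = 0.0434).

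Replicate numbers are shared by the days, but same-numbered libraries did not deviate together (13 pairs, correlations from -0.175 to 0.261), and 4 of 14 libraries correlated best with their own number. With the replicate number as a block, 3 of the 10 genes in place of 7 were called for day 1 minus day 0, with Hspa1a (2.98, adjusted p = 0.0794), Hspa1b (2.25, adjusted p = 0.0833), Hsp90aa1 (0.96, adjusted p = 0.0920) and Dnajb1 (1.45, adjusted p = 0.0673) no longer called by edgeR. Hspa1b was no longer called for day 3 minus day 1 (-2.83, adjusted p = 0.0546), and day 3 minus day 0 was -1.02 for Hspa1a, -0.58 for Hspa1b and -0.18 for Bag3. 

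Leaving out each library in turn, the count of the 10 genes ranged over 6 to 8 for day 1 minus day 0, 2 to 3 for day 3 minus day 0, 6 to 9 for day 3 minus day 1, 7 to 8 and 0 to 3 for the formats at day 1 and day 3 and 3 to 6 for the change between them. Within the 1-digit libraries the ranges were 9 to 10, 3 to 6 and 8 to 8, and for the 3-digit libraries 2 to 3, 3 to 4 and 0 to 3, in the order used above. The lowest counts were 3 for day 3 minus day 0 within the 1-digit libraries (without day 0 replicate 1, 2 or 3), 0 for the formats at day 3 (without day 3 replicate 2, 3 or 5), 3 for their change (without day 1 replicate 1 or day 3 replicate 4), and 0 for day 3 minus day 1 within the 3-digit libraries (without day 1 replicate 1 or 2 or day 3 replicate 2 or 3). The count of other chaperones ranged over 24 to 35, 17 to 29 (17 without day 0 replicate 3) and 11 to 26 (11, 13 and 12 without day 1 replicate 3 or 5 or day 3 replicate 1) for the days. It ranged over 15 to 25 (15 without day 1 replicate 2) and 0 to 17 for the formats (17, 4, 3 and 0 without day 3 replicate 1, 2, 3 or 5), and 9 to 19 (9 without day 1 replicate 1) for their change. It was 39 to 45, 29 to 37 and 23 to 34 within the 1-digit libraries, and 15 to 33 (15 without day 1 replicate 1), 22 to 30 and 1 to 16 (1, 3 and 9 without day 1 replicate 1 or 2 or day 3 replicate 3) for the 3-digit libraries. Signs changed without a single library for day 3 minus day 0 in Hspa1a (-1.23 to 0.99), Hspa1b (-0.66 to 0.33), Bag3 (-0.11 to 0.34) and Cryab (-0.95 to 0.11), for the formats at day 3 in Hsp90aa1 (-0.62 to 0.50), Hsph1 (-0.85 to 1.14), Hspb1 (-0.49 to 0.15) and Hspb8 (-0.032 to 0.37), for day 3 minus day 0 within the 1-digit libraries in Hspa1a (-1.16 to 2.72), Hspa1b (-0.63 to 1.35), Dnajb1 (-0.27 to 0.32) and Cryab (-0.42 to 0.63), and for day 3 minus day 1 within the 3-digit libraries in Hspa1b (-0.43 to 0.42), Hspa8 (-0.34 to 0.025) and Hspb8 (-0.19 to 0.20). Calls gained without a single library, beside those in the text, were Hspa1a for day 3 minus day 0 within the 1-digit libraries without day 3 replicate 4 (2.72, adjusted p = 0.00281) or day 1 replicate 4 (1.81, adjusted p = 0.0320), Hsp90aa1 there without day 3 replicate 5 (-1.26, adjusted p = 0.00624), and Bag3 for 3-digit day 1 minus day 0 without day 3 replicate 1 (0.62, adjusted p = 0.0367) or 2 (0.62, adjusted p = 0.0349) by edgeR. Bag3 was also gained for the change of the format difference without day 3 replicate 2 (1.20, adjusted p = 0.0359), Hspb1 for day 3 minus day 1 within the 3-digit libraries without day 3 replicate 1 (-1.16, adjusted p = 0.0328), and Cryab without day 0 replicate 4 at day 1 in the 1-digit (1.36, adjusted p = 0.00181) and 3-digit libraries (1.71, adjusted p = 0.00139) and for the formats at day 3 (-0.9997, adjusted p = 0.04645), and without day 0 replicate 1 for 3-digit day 3 minus day 0 (-1.42, adjusted p = 0.0497). With 2 or 3 libraries of a format on a day, small differences could not be told from the spread between libraries.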

Other observations

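A pair of genes of the chaperone lists fell under the expression filter in the tests and was chosen after the values were seen. Hspa1l, an Hsp70 gene next to Hspa1a that is known from testis, had 0, 4, 2 and 2 reads in the libraries of day 0, 68, 16 and 45 reads in the 1-digit and 2 and 10 reads in the 3-digit libraries of day 1, and 1 to 7 reads at day 3. Cryaa, the αA-crystallin of the lens, had 1, 5, 4 and 20 reads in replicates 1 to 4 of day 0 and 0 to 14 reads in the later libraries. Replicate 4 of day 0, with the most Cryaa reads, was also the library with the highest Cryab level in CPM.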
